A study of Rattus norvegicus with 30 samples.

Results

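Rat hepatocytes exposed to 100 µM beta-naphthoflavone (BNF) for 48 h were compared with hepatocytes given vehicle for the same time, across 14217 genes. The comparison uses 10 of the series' 30 expression arrays, the 5 arrays labelled 100 µM BNF at 48 h and the 5 labelled 1% dimethyl sulfoxide (DMSO) at 48 h. Each gene was read from the probe set with its highest mean log2 signal over the 30 arrays, among probe sets annotated to 1 gene. The cells were purchased frozen hepatocytes of male Sprague Dawley rats, plated on collagen under Matrigel and dosed on day 3 of culture. All groups shared this cell source and medium, and the dosing solutions of every group were made in DMSO, so no group was free of DMSO. The 5 arrays of a group came from separate culture wells. Which animals the wells came from is not in the labels, and the p-values therefore describe well-to-well spread. The remaining arrays, 1 µM BNF at 48 h and vehicle, 1 µM and 100 µM BNF at 24 h, also with 5 arrays each, enter the estimate of the spread and 2 further comparisons, 100 against 1 µM at 48 h and the 100 µM effect at 48 h against that at 24 h.

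BNF is a synthetic flavone that binds the aryl hydrocarbon receptor (AhR), a transcription factor that waits in the cytosol with chaperones. On binding, AhR moves to the nucleus, pairs with Arnt and switches on genes that carry its response element, among them the Cyp1 cytochromes P450 that oxidise planar aromatic compounds. Liver cells meet such compounds from food and the gut, and the same enzymes make reactive products that other systems, such as the NRF2 antioxidant response and conjugating enzymes, deal with.

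The vehicle and 100 µM arrays at 48 h had similar mean quality measures. Their medians ran from 368.45 to 388.85 in vehicle and from 336.51 to 401.92 at 100 µM. Values are linear signal intensities scaled so that the trimmed means of all arrays were equal, which would hide a shift common to the whole transcriptome. The median gene had a standard deviation of 0.192 to 0.206 log2 units within a group. The first principal component of the 10 arrays held 18.4% of their variance and placed the vehicle arrays from -36.48 to -11.38 and the BNF arrays from 21.85 to 29.01. Median signal was 376.9 in vehicle and 369.7 at 100 µM (two-sided exact permutation p = 0.5873), and the Gapdh control probes, which read RNA integrity, had a 3' to 5' offset of 0.1317 and 0.1144 log2 units (exact permutation p = 0.127). The smallest p that 5 against 5 arrays allow is 0.00794, and no measure of the 4 compared passed after adjustment. Measured markers of hepatocytes, 13 in all, had a median percentile of 99.1 among the gene means, and 0 of them lay below the median gene. Their summed signal ran from 457671 to 536096 in vehicle and from 348584 to 426165 at 100 µM. Of these 13 markers, 9 were lower and none higher, and in bulk RNA fewer cells of a type and less RNA per cell cannot be told apart.

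Markers of other liver cells read at lower percentiles. No detection calls were used, so whether these cells were present is not settled. The 15 Kupffer cell markers, genes of the resident macrophages of liver, summed to between 20842.8 and 23313.4 in vehicle and between 17442.7 and 18741.8 at 100 µM, without overlap. The macrophage lysozyme Lyz2 and the endotoxin co-receptor Cd14, which hepatocytes also make, were the 2 markers of that list that fell, by 0.62 and 0.24 on the log2 scale (adjusted p = 1.22e-05 and 0.0153). Cd14 did not pass without BNF replicate 1 (adjusted p = 0.0575) or with arrays centred on their median (0.118), and the other 13 markers of the list were not called. Cd14 alone had mean signals of 10534.5 in vehicle and 8937.7 at 100 µM, a large part of the sums of the 15 markers. The 17 stellate cell, 13 endothelial, 9 cholangiocyte and 12 lymphocyte markers had median percentiles of 25.9, 18.2, 18.9 and 19.4. The stellate marker Rgs5 (-0.69, adjusted p = 0.0471) and the endothelial marker Stab2 (-1.60, adjusted p = 0.0237) were lower, but neither call was stable. Rgs5 was not called when any 1 of 8 arrays was left out, BNF replicate 1 and vehicle replicate 1 being the exceptions (adjusted p up to 0.123), and Stab2 was not called without BNF replicate 3 (0.0671), BNF replicate 5 (0.0836) or vehicle replicate 4 (0.0625). The adhesion molecule Epcam fell by 0.36 on the log2 scale (adjusted p = 6.57e-08), while Krt7 and Krt19, the keratins that define bile duct cells, had mean vehicle signals of 11.03 and 18.72. No lymphocyte marker was called. Leaving out single arrays moved these short counts: 1 Kupffer marker was called higher without vehicle replicate 3, 1 stellate marker higher without BNF replicate 5 or vehicle replicate 2, 1 endothelial marker higher without BNF replicate 5 or vehicle replicate 3 or 5, 2 endothelial markers lower without BNF replicate 1 or 2, and 2 cholangiocyte markers lower without vehicle replicate 5. The part of other cells in the results below was not tested.

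At 100 µM for 48 h, 2475 of 14217 genes differed from vehicle at an adjusted p of 0.05 in limma, which is 17.4%. Of these, 1250 were higher (8.79%) and 1225 lower (8.62%), and these shares are given as the background for each gene list below. The lists were chosen with earlier results of these data known. A share above the background therefore describes a list and is not a test of it. Calls were more frequent among bright genes. A fit of the 7109 genes not below the median mean signal called 1316 higher and 1100 lower. For lists of bright genes, such as NRF2 targets with a median percentile of 97.6, the shares over all genes therefore understate the background. For lists of dim genes, such as cell cycle genes with a median percentile of 37.5, they overstate it. Most differences were small, with a median size of 1.28-fold among the genes called. At least 2-fold differences were found in 252 genes (1.77%), and here the directions were unequal, with 50 genes higher (0.352%) and 202 lower (1.42%). Both groups of arrays were fully separated, with every value of one group above every value of the other, in 1664 of the genes called and in 1897 of all genes (13.3%). The median log2 fold change of all genes was 0.02, and 90% of genes lay between -0.71 and 0.61. Without vehicle replicate 5 the number called was 2058, and without vehicle replicate 2 it was 2501.

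**Figure D1:**
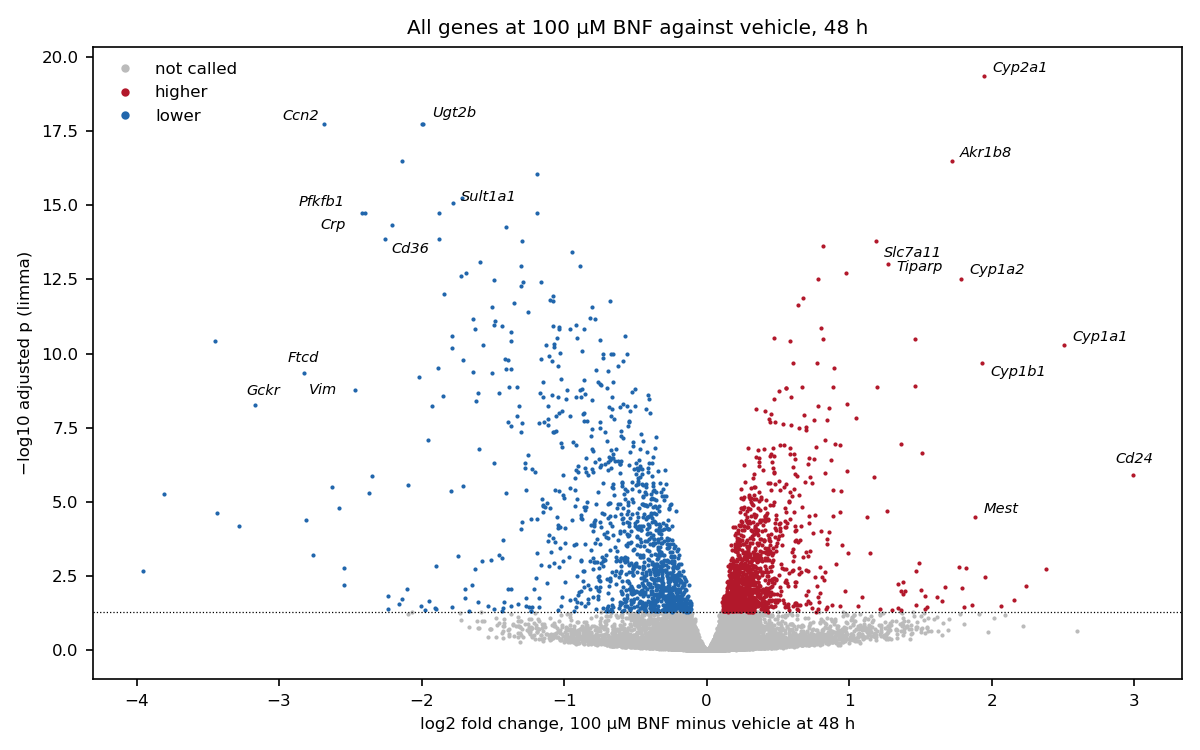
Each point is a gene, with its log2 fold change at 100 µM BNF against vehicle at 48 h on the horizontal axis and the negative log10 of its limma adjusted p on the vertical axis; the dotted line is an adjusted p of 0.05. Of 14217 genes, 1250 lie above the line on the right and 1225 on the left, and the far left is more densely filled (202 genes at least 2-fold lower against 50 higher).

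The AhR battery, the classic targets through which BNF is recognised in liver, rose in 5 of 8 measured members, and none fell. The median log2 fold change of the 8 genes was 1.13. Cyp1a1, the P450 most closely tied to AhR, had signals of 6211, 6523, 7444, 11080.1 and 16365 on the vehicle arrays and 38665, 52142, 53729.5, 53916 and 55182 on the BNF arrays. The groups did not overlap, and the lowest BNF array was more than 2-fold above the highest vehicle array. Its log2 fold change was 2.50 (SE 0.20), a 5.68-fold rise (adjusted p = 5.03e-11). Cyp1a2, the P450 that oxidises caffeine and aromatic amines, had signals of 2486, 3293, 3434, 3488 and 4169.6 on the vehicle arrays and 8961, 11224, 11258, 13174 and 13333 on the BNF arrays. All 5 BNF arrays lay above all vehicle arrays, and the rise was 3.45-fold (log2 fold change 1.79, SE 0.11, adjusted p = 2.99e-13). Cyp1b1, a P450 that is scarce in normal liver and oxidises steroids and polycyclic hydrocarbons, had signals of 522, 536, 661, 675 and 937 on the vehicle arrays and 2141, 2374, 2441, 2485 and 3092 on the BNF arrays. Again the groups were separate, with a 3.82-fold rise (log2 fold change 1.93, SE 0.17, adjusted p = 2.14e-10).

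Tiparp, the ADP-ribosyltransferase that marks AhR and dampens it, had signals of 2409, 2502, 2697, 2860.3 and 3622 on the vehicle arrays and 6292, 6729, 6845, 6888 and 7017 on the BNF arrays. The BNF arrays were tightly grouped above vehicle, and the rise was 2.42-fold (SE 0.08 log2 units, adjusted p = 9.89e-14). Nqo1, the quinone reductase that is a target of both AhR and NRF2, had signals of 28775, 29856, 30304, 33309.7 and 33798 on the vehicle arrays and 43654, 53568, 55287, 56479 and 59474 on the BNF arrays. It rose 1.71-fold with no overlap (SE 0.07 log2 units, adjusted p = 2.14e-10). The other 3 members did not pass. Aldh3a1, an aldehyde dehydrogenase, had low signals of 72.1, 82.4, 89.3, 144 and 238 on the vehicle arrays and 155, 194, 199, 280.2 and 334 on the BNF arrays. Its groups overlapped through 1 vehicle array, and its log2 fold change of 0.99 (SE 0.37) had an adjusted p of 0.0643, which became 0.0155 without vehicle replicate 2 and 0.0479 with quantile normalization. Ahrr, which encodes the AhR repressor, had overlapping signals of 30.4, 73, 88.4, 119 and 207 on the vehicle arrays and 10.1, 19.4, 53.6, 69 and 220.1 on the BNF arrays. Its log2 fold change of -0.98 had a standard error of 0.74 (adjusted p = 0.437), the widest error of the 8 members. The log2 fold change of the P450 Cyp2s1 was -0.14 (SE 0.17, adjusted p = 0.684).

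**Figure D2:**
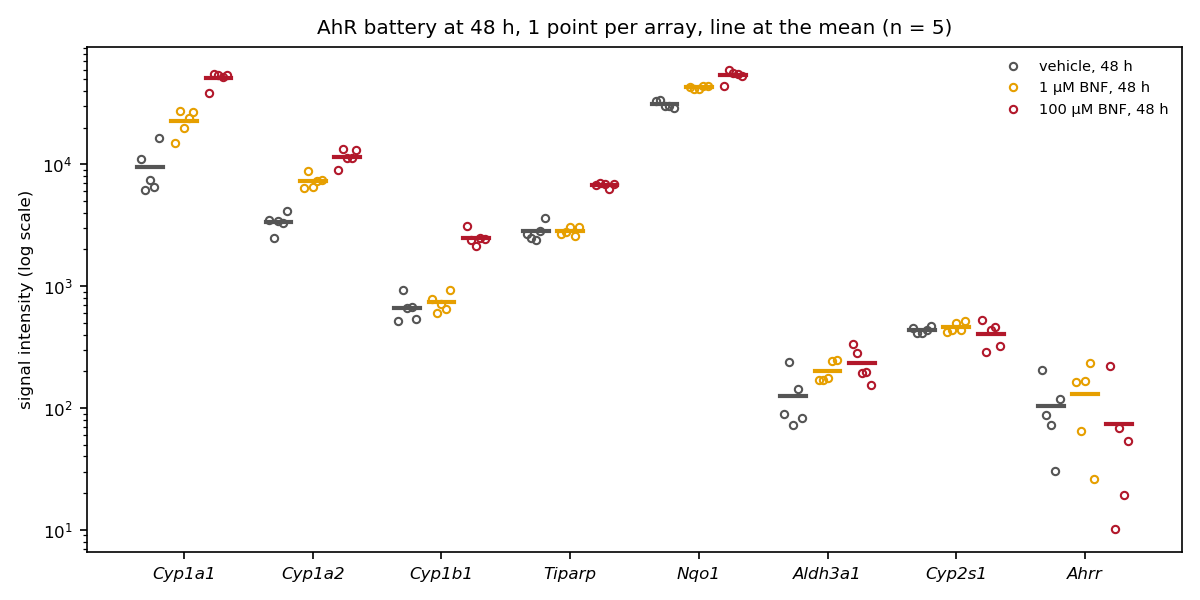
Signal intensity of the 8 AhR battery genes on a log axis, 1 point per array with a line at the mean of 5 arrays, for vehicle, 1 µM and 100 µM BNF at 48 h. For Cyp1a2 all 1 µM arrays sit between vehicle and 100 µM, as they do for Cyp1a1 except 1 array below the highest vehicle array, and for Aldh3a1, Cyp2s1 and Ahrr the vehicle and 100 µM points overlap.

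Few genes of the receptor machinery passed the test. Of 10 measured AhR pathway genes, 1 fell and none rose. The gene that fell was Nrip1, a nuclear receptor co-regulator that is itself an AhR-linked gene, at -0.34 on the log2 scale (adjusted p = 0.000371). The receptor gene Ahr had signals of 315, 337, 362, 366 and 392 on the vehicle arrays and 253, 280.4, 285, 315 and 369 on the BNF arrays. These ranges overlapped, and its log2 fold change was -0.24 (SE 0.19, adjusted p = 0.462). Its partner Arnt read low, between 27.6 and 227 on the 10 arrays, with a log2 fold change of 0.60 (SE 0.53, adjusted p = 0.526).

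The AhR response element has the core GCGTG, and promoters from RefSeq (assembly GRCr8, 250 bases before to 50 after the start of the gene) were available for 6 of the 8 battery genes. The core, read on both strands, was present in 4 of them, Cyp1b1, Nqo1, Tiparp and Ahrr, and was not in this window of Cyp1a2 or Cyp2s1. Ahrr, which was not called, carried 3 matches, the most of the 6. The 4 promoters below are shown because their genes all rose but carry the core at different numbers, 2 in Cyp1b1, 1 each in Tiparp and Nqo1 and 0 in Cyp1a2. Capitals mark GCGTG or its reverse complement, and each sequence is given 5′ to 3′ on the strand of its gene.
Cyp1b1, chr6:21094315-21094614, plus strand: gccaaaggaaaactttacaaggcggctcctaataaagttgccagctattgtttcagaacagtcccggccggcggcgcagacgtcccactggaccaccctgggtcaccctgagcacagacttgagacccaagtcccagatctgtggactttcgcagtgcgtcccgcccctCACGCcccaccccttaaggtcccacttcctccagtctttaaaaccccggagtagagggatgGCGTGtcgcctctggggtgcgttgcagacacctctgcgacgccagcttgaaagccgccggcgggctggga
Tiparp, chr2:152063519-152063818, plus strand: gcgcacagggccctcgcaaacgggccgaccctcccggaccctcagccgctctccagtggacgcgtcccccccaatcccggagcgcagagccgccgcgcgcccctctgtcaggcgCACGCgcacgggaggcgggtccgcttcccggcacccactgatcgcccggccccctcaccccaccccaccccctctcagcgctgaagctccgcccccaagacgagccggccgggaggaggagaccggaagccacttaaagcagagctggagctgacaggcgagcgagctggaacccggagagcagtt
Nqo1, chr19:52220218-52220517, minus strand: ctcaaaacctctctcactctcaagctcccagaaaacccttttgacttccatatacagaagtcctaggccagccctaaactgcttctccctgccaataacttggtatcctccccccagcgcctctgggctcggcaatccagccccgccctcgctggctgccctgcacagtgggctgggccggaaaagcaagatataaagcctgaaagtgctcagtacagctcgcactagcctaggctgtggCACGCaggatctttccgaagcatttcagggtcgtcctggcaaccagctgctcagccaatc
Cyp1a2, chr8:66978100-66978399, minus strand: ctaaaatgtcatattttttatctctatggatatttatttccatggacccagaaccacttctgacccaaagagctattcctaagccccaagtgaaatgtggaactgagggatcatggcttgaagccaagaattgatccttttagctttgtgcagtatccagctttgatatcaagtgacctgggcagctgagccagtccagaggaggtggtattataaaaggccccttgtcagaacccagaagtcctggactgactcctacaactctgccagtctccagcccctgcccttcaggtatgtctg
The same core is common in rat promoters. It was found in 29.7% of the 33469 promoters in the table and in 45.8% of the 11700 belonging to tested genes. Among genes called higher it was in 53.8% of 1065 promoters, whose median GC content was 61.3%. Among genes called lower it was in 43% of 1016, with a median GC content of 58.7%, and among genes not called in 45.2% of 9619, with a median of 60%. These are matches of letters in 300 bases and say nothing of binding, and GC content moves with them.

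Genes of the antioxidant response rose broadly. Of 23 measured targets of NRF2, the transcription factor that senses electrophiles, 15 rose, 1 fell and 7 did not pass, with a median log2 fold change of 0.34. Akr1b8, an aldo-keto reductase that detoxifies aldehydes, had signals of 5746, 6988, 7319.6, 7749 and 8041 on the vehicle arrays and 21419, 22845, 23569, 24798 and 24859 on the BNF arrays. The BNF arrays were about 3 times as high as vehicle with no overlap, a 3.29-fold rise (SE 0.07 log2 units, adjusted p = 3.34e-17). Slc7a11, the cystine importer that feeds glutathione synthesis, had signals of 5898, 6149, 6248, 6445 and 6749 on the vehicle arrays and 12897, 13624, 14596, 14995 and 15643 on the BNF arrays. It rose 2.28-fold (SE 0.07 log2 units, adjusted p = 1.57e-14), again with separate groups. Both subunits of the enzyme that starts glutathione synthesis rose, the catalytic subunit Gclc 1.97-fold (adjusted p = 1.88e-13) and the modifier subunit Gclm 1.50-fold (adjusted p = 1.52e-07). The thioredoxin reductase Txnrd1 rose 1.62-fold and Pgd, which makes NADPH in the pentose phosphate pathway, 1.60-fold (adjusted p = 3e-08 and 1.34e-12). The member that fell was the glutathione transferase Gsta3, named here after its values were seen, at -0.20 on the log2 scale (adjusted p = 0.0217). Its groups overlapped, and it was not called with arrays centred on their median (0.156), in a fit of those groups alone (0.0773), or without BNF replicate 1 (0.0791), BNF replicate 5 (0.0736), vehicle replicate 3 (0.0535) or vehicle replicate 4 (0.0725).

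In the wider list of glutathione supply and breakdown, 9 of 21 genes rose and 4 fell, with a median log2 fold change of 0.00. The glutaredoxin Glrx and the glutathione peroxidase Gpx2 rose 1.72-fold and 1.57-fold (adjusted p = 3.13e-13 and 3.22e-08). Cdo1, the dioxygenase that commits cysteine to taurine and sulfate, had signals of 39012, 40038, 42998, 49250.4 and 49493 on the vehicle arrays and 19488, 20033, 20283, 21842 and 22486 on the BNF arrays. It fell 2.11-fold with no overlap (adjusted p = 1.11e-12). The number of members that fell was 2 without BNF replicate 1 and without vehicle replicate 4, and 2 with centred arrays.

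Drug-metabolising genes outside the AhR battery moved in both directions. Cyp2a1, a testosterone hydroxylase of rat liver, had signals of 2930.0, 3328, 3458, 3754 and 3888 on the vehicle arrays and 12902, 12932, 13141, 13177 and 14362 on the BNF arrays. The groups were far apart and the spread was small, so this 3.85-fold rise (SE 0.06 log2 units) had the smallest adjusted p of all genes, 4.34e-20. It was the only member of the sex-dependent P450 list that rose, while 3 of the 9 fell. The male-specific Cyp2c11 was 1.43-fold lower (adjusted p = 0.00296), Cyp2c22 2.05-fold lower (adjusted p = 9.94e-09) and Cyp3a18 2.49-fold lower (adjusted p = 5.85e-09). Cyp2e1, the ethanol-inducible P450, fell 2.24-fold (adjusted p = 3.81e-13).

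Targets of CAR and PXR, the nuclear receptors that induce drug metabolism, showed no common direction, with 2 of 13 higher, 4 lower and a median of -0.10. Cyp3a23-3a1, the main PXR-induced P450 of the rat, was 1.36-fold higher (adjusted p = 0.000454). Por, the reductase that passes electrons to all microsomal P450s, fell 1.58-fold (adjusted p = 3.32e-07), Alas1, the first enzyme of heme synthesis, 1.26-fold (adjusted p = 0.000182), and the carboxylesterase Ces2c 1.37-fold (adjusted p = 1.15e-06). Among 25 conjugating enzymes, 4 rose and 10 fell, with a median of -0.17. Members of the Ugt2b family of glucuronosyltransferases went opposite ways. Ugt2b1 had signals of 4281, 4807, 5209, 5389.8 and 5946 on the vehicle arrays and 10084, 10765, 11479.5, 12903 and 13330.2 on the BNF arrays, and Ugt2b had signals of 18454, 18662, 21028, 21962 and 21989 on the vehicle arrays and 4373, 5129, 5149, 5368 and 5761 on the BNF arrays. Neither gene's groups overlapped, with Ugt2b1 2.29-fold higher (adjusted p = 1.31e-09) and Ugt2b 3.96-fold lower (adjusted p = 1.8e-18). Ugt2b10 was 2.26-fold lower (adjusted p = 2.12e-08). These genes are close in sequence, and probe sets may share signal between them. The phenol sulfotransferase Sult1a1 had signals of 58282, 60405, 63029, 68229.7 and 74474 on the vehicle arrays and 14727, 18223, 18798, 20939.6 and 22162 on the BNF arrays. This gene fell 3.44-fold with wide separation (SE 0.09 log2 units, adjusted p = 8.27e-16), and Sult1b1, which sulfates thyroid hormone, fell 2.45-fold (adjusted p = 1.59e-14). The glutathione transferase Gsta4, which conjugates lipid aldehydes, rose 1.79-fold (adjusted p = 1.68e-08).

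The 15 highest fold changes were taken among called genes with separate groups whose higher group mean was above the median gene, and they were led by Cd24, a surface glycoprotein used as a marker of hepatic progenitor cells. Cd24 had signals of 74.7, 92.9, 126, 142 and 158 on the vehicle arrays and 773, 840.1, 883, 1017 and 1063 on the BNF arrays. Every BNF array was above every vehicle array, and the rise of 7.94-fold starts from a low vehicle signal (log2 fold change 2.99, SE 0.40, adjusted p = 1.27e-06). Mest, an imprinted gene of mesoderm and fetal tissue, had signals of 308, 341, 392, 455 and 462 on the vehicle arrays and 1277, 1405, 1434, 1523 and 1525 on the BNF arrays. It rose 3.70-fold without overlap (SE 0.31 log2 units, adjusted p = 3.13e-05). The glutamine transporter Slc1a5 rose 3.19-fold (SE 0.45 log2 units, adjusted p = 0.00756) and Elmod1, a regulator of small Arl GTPases, 2.85-fold (adjusted p = 2.32e-07). Hsd17b2, which inactivates estradiol and testosterone, rose 2.75-fold (adjusted p = 1.26e-09). Fosl1, a subunit of the AP-1 transcription factor, had signals of 1613, 1947, 2168, 2266 and 2487 on the vehicle arrays and 4945, 5415, 5482, 6061 and 6775 on the BNF arrays. Its groups were separate, with a 2.75-fold rise (adjusted p = 3.2e-11). The microtubule-associated protein gene Map2 rose 2.58-fold (adjusted p = 1.07e-07). Its second probe set, dim at a mean signal of 108 against 634, gave a log2 fold change of 0.45 (adjusted p = 0.803). The remaining genes of the 15 are the Cyp1 members, Tiparp, Cyp2a1, Akr1b8, Ugt2b1 and Slc7a11 described above.

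**Figure D3:**
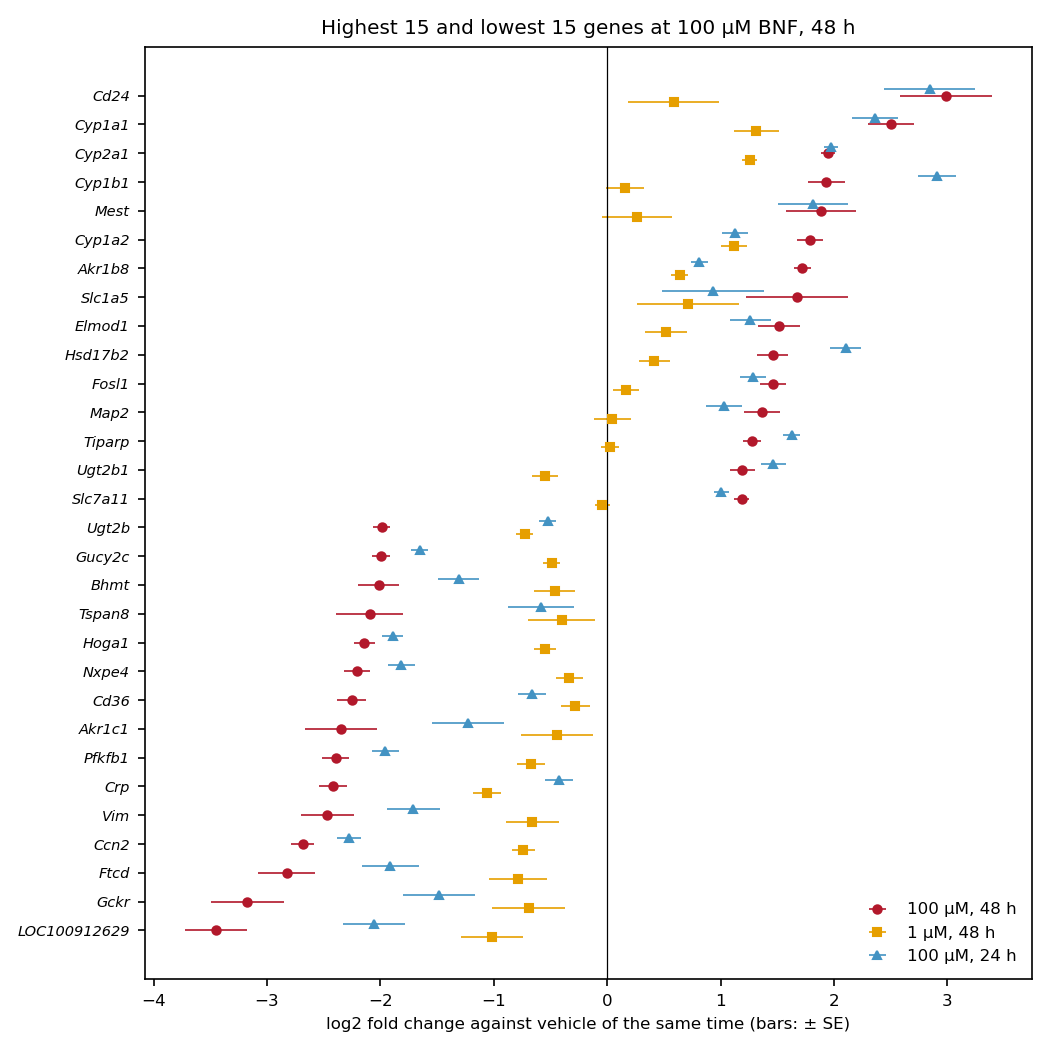
Log2 fold change against vehicle of the same time, with bars of 1 standard error, for the 15 highest and 15 lowest genes at 100 µM BNF and 48 h (circles), with their values at 1 µM and 48 h (squares) and at 100 µM and 24 h (triangles). The genes were chosen on the circles, from 2.99 for Cd24 to -3.45 for LOC100912629, and the squares and circles share the vehicle arrays.

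The 15 lowest fold changes were taken by the same conditions. The transcript listed as LOC100912629 had the lowest value of these (-3.45, adjusted p = 3.68e-11) and is not annotated further here. Gckr, which holds glucokinase inactive in the nucleus, had signals of 1137, 1738, 1791, 1819 and 2534 on the vehicle arrays and 57.1, 134, 196, 419 and 438 on the BNF arrays. The BNF arrays varied among themselves but all lay below vehicle, a 9.01-fold fall (log2 fold change -3.17, SE 0.32, adjusted p = 5.44e-09). Ftcd, a folate-dependent enzyme of histidine breakdown, had signals of 4118, 6525, 7796, 7923 and 10986 on the vehicle arrays and 512, 984, 1051, 1107 and 1735 on the BNF arrays. It fell 7.09-fold with no overlap (SE 0.25 log2 units, adjusted p = 4.46e-10). Ccn2, the matricellular growth factor that is a standard readout of YAP and TGF-beta, had signals of 4982, 5856, 6121, 6712 and 7559 on the vehicle arrays and 764, 875, 1026, 1069 and 1129 on the BNF arrays. The groups were far apart, a 6.42-fold fall (SE 0.10 log2 units, adjusted p = 1.8e-18).

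Vim, the intermediate filament of mesenchymal and dedifferentiating cells, had signals of 1747, 2505, 2661, 3319 and 5496 on the vehicle arrays and 368, 525, 553, 594 and 649.9 on the BNF arrays. The highest BNF array was below the lowest vehicle array, and the fall was 5.53-fold (adjusted p = 1.68e-09). Pfkfb1, the liver enzyme that sets the allosteric switch between glycolysis and gluconeogenesis, fell 5.26-fold (adjusted p = 1.77e-15) and the aldo-keto reductase Akr1c1 5.09-fold (adjusted p = 1.34e-06). Hoga1, an enzyme of hydroxyproline breakdown, fell 4.41-fold (adjusted p = 3.34e-17), and Gucy2c, the guanylate cyclase that is the receptor of guanylin, 3.99-fold (adjusted p = 1.8e-18). Nxpe4 and the tetraspanin Tspan8 fell 4.62-fold and 4.27-fold (adjusted p = 4.82e-15 and 2.6e-06).

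The genes of lipid metabolism that passed the test were mostly lower. Of 30 genes of fatty acid oxidation and PPARA targets, the nuclear receptor that drives fat burning in fasting, 19 fell, none rose and 11 did not pass, with a median log2 fold change of -0.37. Without BNF replicate 2, vehicle replicate 1 or vehicle replicate 2, 1 member was called higher. Cyp4a1, the fatty acid omega-hydroxylase that serves as the rodent PPARA marker, had signals of 5241, 5937, 6117, 6265 and 6971 on the vehicle arrays and 1508, 1582, 1597, 1735 and 1855 on the BNF arrays. It fell 3.68-fold with separate groups (adjusted p = 1.77e-15). Cd36, the fatty acid uptake receptor, had signals of 2728, 3056, 3147, 3294 and 3599 on the vehicle arrays and 615, 621, 628, 653 and 803 on the BNF arrays. All BNF arrays were far below vehicle, a 4.77-fold fall (adjusted p = 1.34e-14). Angptl4, an inhibitor of lipoprotein lipase, fell 2.81-fold, the fatty acid carrier Fabp1 2.97-fold and Pdk4, the kinase that shuts off pyruvate dehydrogenase, 2.05-fold (adjusted p = 3.27e-13, 5.03e-11 and 1.25e-11). Of 22 peroxisome genes 9 fell and 1 rose, with a median of -0.11, and the count that rose was 2 without BNF replicate 1 or vehicle replicate 5. Pex11a, which drives peroxisome division, fell 2.17-fold and Phyh, which begins phytanic acid breakdown, 1.75-fold (adjusted p = 5.83e-09 and 5.82e-08).

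Fatty acid synthesis genes fell in 13 of 23 and rose in 2, with a median of -0.39. Without vehicle replicate 2 the number that rose was 4. Scd, the desaturase that makes oleate, had signals of 17219, 18368, 19678, 20269.9 and 27674 on the vehicle arrays and 6936, 7798, 7824, 7912 and 9727 on the BNF arrays. It fell 2.55-fold without overlap (adjusted p = 1.96e-12). Acly, which supplies cytosolic acetyl-CoA, fell 1.68-fold, the lipogenic regulator Thrsp 3.04-fold and the liver pyruvate kinase Pklr 2.06-fold (adjusted p = 3.43e-11, 2.16e-09 and 2.98e-09). A second Pklr probe set, dim at a mean signal of 41 against 736, was at -0.84 and did not pass (adjusted p = 0.381). Of 19 cholesterol synthesis genes 9 fell, none 2-fold, with a median of -0.20, and 4 were called when arrays were centred on their median. The farnesyl diphosphate synthase Fdps and the squalene epoxidase Sqle fell 1.25-fold and 1.31-fold (adjusted p = 0.000165 and 0.00126).

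Bile acid genes moved in both directions. Of 22 members 9 fell and 4 rose, with a median of -0.32. Cyp8b1, which directs synthesis toward cholic acid, had signals of 1209, 1713, 2297, 2638 and 3393 on the vehicle arrays and 441, 504, 566, 568 and 749 on the BNF arrays. It fell 3.80-fold with no overlap (adjusted p = 5.87e-09), and Cyp27a1, of the alternative pathway, 1.89-fold (adjusted p = 1.07e-11). The canalicular bile salt export pump Abcb11 fell 2.11-fold and the uptake transporter Slco1b2 2.22-fold (adjusted p = 1.65e-12 and 1.24e-05). A second Slco1b2 probe set, dim at a mean signal of 127 against 333, was at -0.34 (adjusted p = 0.779). The basolateral efflux pumps, which carry conjugates back to blood, rose, Abcc4 1.91-fold (adjusted p = 1.18e-07) and Abcc3 1.54-fold (adjusted p = 1.14e-06).

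Most genes of glucose metabolism were lower. Of 21 genes 13 fell, 7 of them at least 2-fold, and 1 rose, with a median of -0.59. Besides Gckr and Pfkfb1, the gluconeogenic phosphatase Fbp1 had signals of 8926, 10668, 10722, 11356 and 11428 on the vehicle arrays and 3769, 3855, 3974, 4775 and 5225 on the BNF arrays. These did not overlap, a 2.47-fold fall (adjusted p = 5.08e-13). Slc37a4, which moves glucose phosphate into the endoplasmic reticulum for release, fell 3.11-fold (adjusted p = 7.06e-12). The glycerol phosphate dehydrogenase Gpd1 fell 1.72-fold and the glucose transporter Slc2a2 1.44-fold (adjusted p = 6.82e-12 and 1.94e-09).

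Genes of nitrogen metabolism were also mostly lower. Of 40 genes that serve the urea cycle or break down amino acids 28 fell, 13 of them at least 2-fold, 1 rose and 11 did not pass, with a median of -0.51. The single count that rose was 2 without BNF replicate 3. Cps1, the entry enzyme of the urea cycle, had signals of 41294, 44235, 47314, 47743 and 51761 on the vehicle arrays and 19142, 20805, 20946, 24633 and 24894 on the BNF arrays. Its groups were apart, and it fell 2.11-fold (adjusted p = 1.17e-11). Tat, the tyrosine aminotransferase, fell 1.65-fold and Aass, which begins lysine breakdown, 2.74-fold (adjusted p = 1.46e-10 and 2.1e-09). In the list of folate, methionine and creatine metabolism 11 of 16 fell and 1 rose, with a median of -0.40. The betaine-homocysteine methyltransferases Bhmt and Bhmt2, which remake methionine, fell 4.04-fold and 2.67-fold (adjusted p = 5.98e-10 and 1.53e-10), and Gamt, the last enzyme of creatine synthesis, 3.58-fold (adjusted p = 1e-12).

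Genes of nucleotide metabolism moved both ways. Of 20 genes 6 fell and 3 rose, with a median of 0.08. Dpys, of pyrimidine breakdown, had signals of 459, 486, 565, 674 and 742 on the vehicle arrays and 13, 23.1, 23.4, 103 and 162 on the BNF arrays. The groups were separate but the BNF signals were near the bottom of the scale, so the size of the fall (14.0-fold, SE 0.56 log2 units, adjusted p = 5.33e-06) is loosely set. The next enzyme of that path, Upb1, fell 2.84-fold and Uox, the rodent urate oxidase, 3.69-fold (adjusted p = 2.64e-12 and 3.06e-10). Of 16 genes of retinoid and steroid metabolism 11 fell and 1 rose, with a median of -0.71. The retinol dehydrogenase Rdh7 had signals of 8114, 9329, 10109, 10820.3 and 12870.3 on the vehicle arrays and 2531, 2625, 2718, 2872 and 3049 on the BNF arrays. It fell 3.68-fold without overlap (adjusted p = 1.34e-14). The related Rdh16 fell 2.71-fold (adjusted p = 1.14e-11) and Hsd11b1, which regenerates active glucocorticoid, 1.62-fold (adjusted p = 3.75e-10). The member that rose was Hsd17b2, and 2 were called higher without BNF replicate 5.

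**Figure D4:**
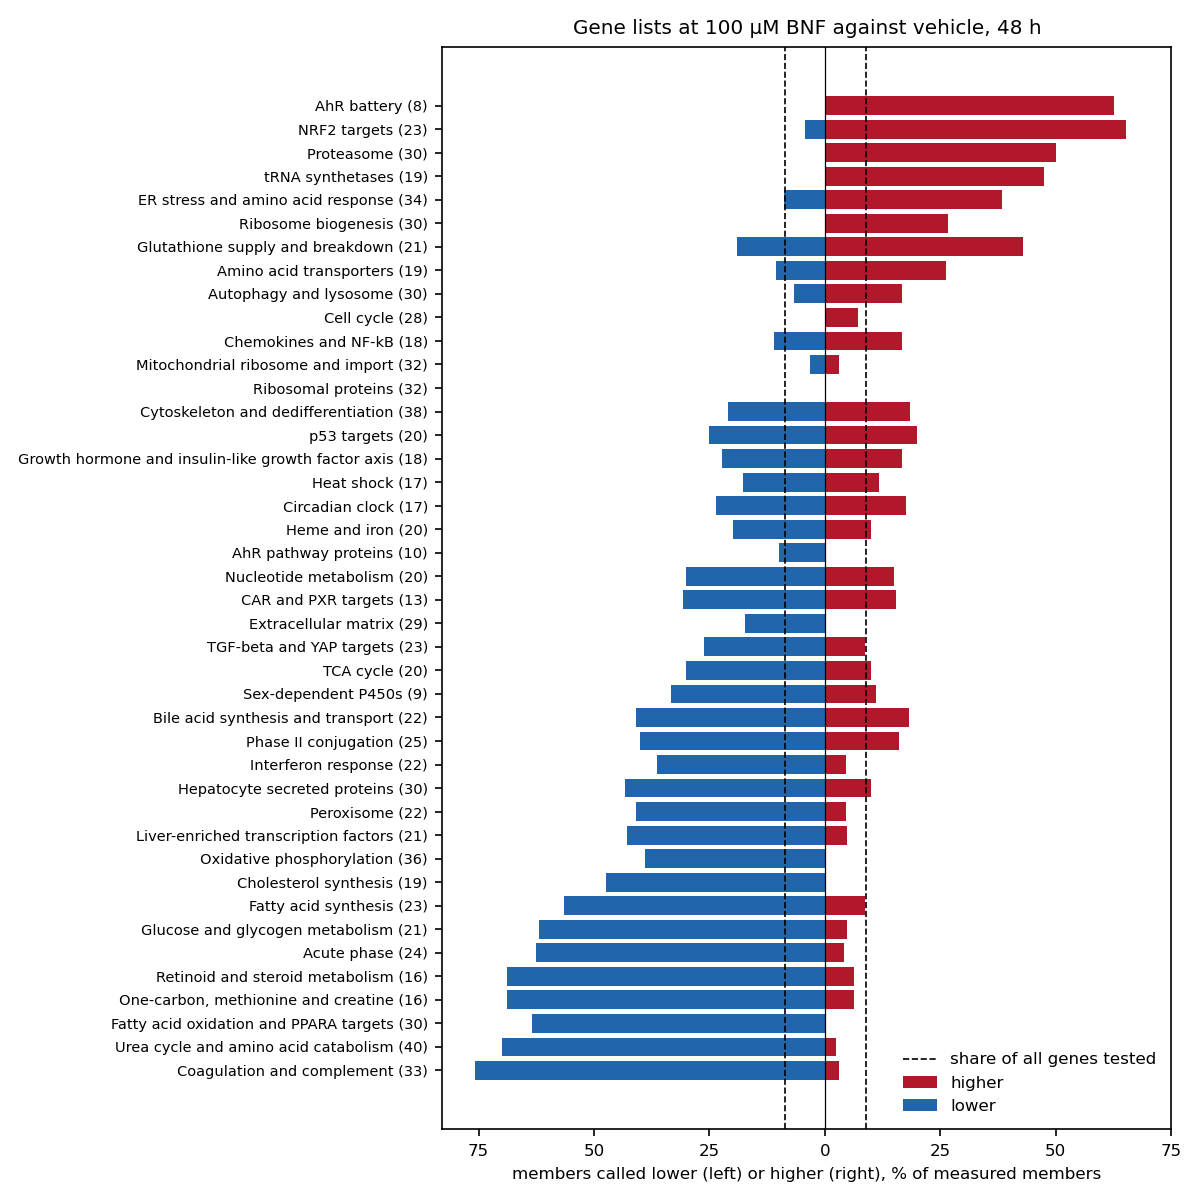
Share of the measured members of each gene list (number in brackets) that was called lower (bars to the left) or higher (bars to the right) at 100 µM BNF against vehicle at 48 h, in percent; the dashed lines mark the shares over all genes tested, 8.62% lower and 8.79% higher. The longest bars to the right are NRF2 targets (15 of 23) and the AhR battery (5 of 8), and the longest to the left coagulation and complement (25 of 33). The dashed lines understate the background for lists of bright genes and overstate it for lists of dim genes.

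Genes of secreted liver products that passed the test were mostly lower, with the highest share among those of blood clotting and complement. Of 33 coagulation and complement genes 25 fell, 1 rose and 7 did not pass, with a median of -0.41. The member that rose was not called without any 1 of BNF replicates 4 and 5 and vehicle replicates 3, 4 and 5. F9, clotting factor IX, fell 1.76-fold, the plasmin inhibitor Serpinf2 2.80-fold and the complement regulator C4bpa 2.10-fold (adjusted p = 6.4e-12, 7.79e-12 and 5.89e-11). Among 30 abundant secreted proteins 13 fell and 3 rose, with a median of -0.24, and 1 rose without vehicle replicate 4. The lipoprotein lipase activator Apoc2 fell 2.46-fold, the selenium carrier Selenop 1.60-fold and the growth factor Igf1 2.51-fold (adjusted p = 1.16e-13, 1.65e-12 and 1.25e-08). A second Selenop probe set, dim at a mean signal of 128 against 31974, had a log2 fold change of -0.36 (adjusted p = 0.589). Fetub, a plasma protease inhibitor, went the other way, with signals of 12019.5, 12734, 13753, 14068 and 14221 on the vehicle arrays and 22168, 22700.3, 23160.1, 23479.6 and 24555 on the BNF arrays. Its arrays were tightly grouped, and it rose 1.74-fold (adjusted p = 1.35e-11).

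Acute phase genes, which the liver raises in inflammation, fell in 15 of 24, with 1 higher and a median of -0.43. The count that rose was 0 without BNF replicate 5 or vehicle replicate 2. Crp, the pentraxin that binds microbial phosphocholine, had signals of 10458, 11832, 12467, 12961 and 13342 on the vehicle arrays and 1895, 1907, 2324, 2336 and 3148 on the BNF arrays. The groups were far apart, and the fall was 5.33-fold (SE 0.12 log2 units, adjusted p = 1.77e-15). Serpina3n, a serine protease inhibitor, had signals of 33525, 36655, 37183, 37633 and 46868 on the vehicle arrays and 11052, 11239.8, 11564, 11928 and 12248 on the BNF arrays. It fell 3.29-fold (adjusted p = 5.77e-16), also without overlap. Itih4 fell 1.93-fold, the metalloreductase Steap4 3.44-fold and Cebpd, the transcription factor that drives acute phase genes, 2.15-fold (adjusted p = 3.81e-14, 6.61e-11 and 1.21e-10). Chemokine and NF-kB genes moved both ways, with 3 of 18 higher and 2 lower, a median of -0.04, and 1 lower without BNF replicate 1 or vehicle replicate 3. The neutrophil chemokine Cxcl1 rose 1.64-fold (adjusted p = 2.96e-05). Of 22 interferon response genes 8 fell and 1 rose, with a median of -0.17. The number that rose was 3 without BNF replicate 1 and 2 without vehicle replicate 2. The ubiquitin-like modifier Isg15 fell 2.00-fold, and the antiviral enzyme Rsad2 rose 1.36-fold (adjusted p = 7.28e-06 and 1.24e-05).

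Liver-enriched transcription factors fell in 9 of 21 and rose in 1, with a median of -0.25. The xenobiotic receptors were among those that fell, PXR (Nr1i2) 1.55-fold and CAR (Nr1i3) 2.28-fold (adjusted p = 1.68e-07 and 3.79e-05). The pioneer factor Foxa1 fell 2.13-fold with overlapping groups (adjusted p = 0.000467). Cebpa, a factor of hepatocyte differentiation, was the member that rose, 1.28-fold (adjusted p = 0.000113). In the growth hormone and insulin-like growth factor axis 4 of 18 fell and 3 rose, with a median of -0.06, among them the growth hormone receptor Ghr, which fell 1.82-fold (adjusted p = 7.76e-10). Of 17 clock genes 3 rose and 4 fell, with a median of 0.03, and 2 fell without vehicle replicate 5. The repressor Cry2 rose 1.71-fold (adjusted p = 1.41e-07), with a second, dimmer probe set (mean signal 234 against 3568) at 0.39 (adjusted p = 0.536). Bhlhe40, another repressor, fell 1.44-fold (adjusted p = 3.61e-06). Of 20 p53 targets 4 rose and 5 fell, with a median of 0.00. Sesn1, a stress-induced inhibitor of mTORC1, fell 3.45-fold (adjusted p = 2.61e-11), and Mdm2, which degrades p53, rose 1.20-fold (adjusted p = 0.0044).

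Genes of protein production and quality control that passed the test were mostly higher, by small amounts. Of 34 genes of the endoplasmic reticulum stress and amino acid response 13 rose and 3 fell, with a median of 0.09. Gdf15, a stress hormone, had signals of 2309, 2859, 3434, 3959 and 4126 on the vehicle arrays and 5305, 5721, 5906, 6158 and 6226 on the BNF arrays. Its groups were separate, and it rose 1.79-fold (adjusted p = 0.000176). The chaperone cofactor Sdf2l1 rose 1.55-fold, while Edem1, which hands misfolded glycoproteins to degradation, fell 1.88-fold (adjusted p = 1.34e-06 and 3.07e-11). Of 19 cytosolic tRNA synthetases 9 rose and none fell, with a median of 0.18. That count was 4 without BNF replicate 5 or vehicle replicate 3, 5 without vehicle replicate 4, 4 with centred arrays and 5 with second probe sets. Iars1, for isoleucine, rose 1.20-fold (adjusted p = 8.79e-05), and its second probe set was at 0.16 (adjusted p = 0.503). Amino acid transporters rose in 5 of 19 and fell in 2, with a median of 0.08, and those that rose included the neutral transporters Slc1a4, 1.85-fold, and Slc7a5, 1.54-fold (adjusted p = 1.37e-09 and 8.49e-05).

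Proteasome subunits rose in 15 of 30 and none fell, with a median of 0.13. The regulatory subunit Psmd1 had signals of 4290.4, 4574, 4577, 4902 and 4999 on the vehicle arrays and 5676, 5963, 5992, 6039.8 and 6293 on the BNF arrays. These did not overlap, and the rise was 1.28-fold (adjusted p = 1.55e-05). The catalytic subunit Psmb5 rose 1.20-fold (adjusted p = 0.000516), but a second probe set was at -0.21 (adjusted p = 0.841). Ribosome biogenesis factors rose in 8 of 30 and none fell, with a median of 0.15, and the count was 14 without vehicle replicate 2. That list held 0 members below the median gene, and the fit of bright genes called 1316 of 7109 higher. The nucleolar proteins Nop56 and Wdr12 rose 1.36-fold and 1.29-fold (adjusted p = 2.21e-06 and 1.92e-05), and a second Nop56 probe set was at -0.03 (adjusted p = 0.926). Ribosomal protein genes had a count of 0 in either direction among 32 in limma, with 2 at an unadjusted p under 0.05 and a median of -0.06. Heat shock genes had 2 of 17 higher and 3 lower, with a median of 0.03, and 1 lower without BNF replicate 2. Autophagy and lysosome genes, with a median percentile of 87.8, had 5 of 30 higher and 2 lower, with a median of 0.04. Their share higher was no greater than that in the fit of bright genes. The number lower was 1 without any 1 of BNF replicates 2 and 4 and vehicle replicates 1 and 5.

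Among 28 cell cycle genes 2 rose (7.14%, against 8.79% of all genes), with a median of 0.12. The list is dim, with 21 members below the median gene, so the share over all genes overstates its background. The 2 that rose were the growth regulator Myc, 1.17-fold, and the replication helicase subunit Mcm7, 1.24-fold (adjusted p = 0.00846 and 0.0393). Mcm7 was not called without any 1 of BNF replicates 1, 3 and 5 and vehicle replicates 1, 3, 4 and 5 (adjusted p 0.0546 to 0.126), and with centred arrays neither gene was (0.0547 for Myc and 0.0687 for Mcm7). A member was called lower without any 1 of BNF replicates 4 and 5 and vehicle replicate 3.

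Genes of cell shape moved both ways. Of 38 cytoskeleton and dedifferentiation genes 7 rose and 8 fell, with a median of 0.02. Beside Cd24 and Vim, the lectin Lgals3 rose 1.39-fold and the actin cross-linker Flna 1.60-fold (adjusted p = 3.51e-09 and 0.000703), and the hepatocyte keratin Krt8 fell 1.32-fold (adjusted p = 0.000259). TGF-beta and YAP targets fell in 6 of 23 and rose in 2, with a median of -0.05, with Ccn2 the only one at least 2-fold lower. Extracellular matrix genes fell in 5 of 29 and none rose, with a median of -0.04. The collagen cross-linking enzyme Lox fell 2.47-fold and the plasminogen activator Plat 2.59-fold (adjusted p = 8.04e-05 and 2.74e-08). Without vehicle replicate 2, 1 matrix gene was called higher.

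The changes in mitochondrial genes were small. Of 36 subunits of oxidative phosphorylation 14 fell and none rose, with a median of -0.14 and no 2-fold change. That count rested on the scaling and on single arrays. It was 3 with arrays centred on their median, 9 in a fit of those groups alone, 7 without BNF replicate 1 and 9 without vehicle replicate 5. The complex I subunit Ndufs7 and the complex II subunit Sdhd fell 1.28-fold and 1.23-fold (adjusted p = 8.35e-06 and 6.35e-06). Of 20 tricarboxylic acid cycle genes 6 fell and 2 rose, with a median of -0.12, and 1 rose without any 1 of BNF replicates 1 and 3 and vehicle replicates 3 and 5. Mitochondrial ribosome and import genes had 1 of 32 in each direction, with a median of -0.01, and the 1 lower was lost without any 1 of BNF replicates 1, 2 and 5 and vehicle replicate 1. Of 20 heme and iron genes 2 rose and 4 fell, with a median of -0.12.

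The comparison of 100 with 1 µM at 48 h addressed the dependence on dose. It found 1984 genes that differed (14.0%), 934 higher (6.57%) and 1050 lower (7.39%) at 100 µM, and 155 of them at least 2-fold (1.09%). The array medians at 100 µM lay 0.11 log2 units below those at 1 µM, so the split depends on the scaling: 47.1% of calls were higher as deposited and 76.2% of 2138 calls with arrays centred on their median. At 1 µM against vehicle 115 genes differed (0.809%), and that comparison and the one of 100 µM share the vehicle arrays, so their values are given side by side. Cyp1a1 rose 2.49-fold at 1 µM (adjusted p = 0.000365), and 100 µM was a further 2.28-fold above 1 µM (adjusted p = 7.84e-05). Cyp1a2 rose 2.17-fold at 1 µM, with 1.59-fold between the doses (adjusted p = 5.16e-07 and 8.47e-05). For Cyp1b1 the log2 fold change was 0.16 at 1 µM (adjusted p = 0.78), and 100 µM was 3.42-fold above 1 µM (adjusted p = 2.97e-09). For Tiparp these were 0.02 (adjusted p = 0.949) and 2.38-fold (adjusted p = 3.15e-13).

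Outside the battery, Cyp2a1 rose 2.39-fold at 1 µM (adjusted p = 1.09e-14) and was 1.61-fold higher again at 100 µM (adjusted p = 1.55e-09). Slc7a11 and Gclc had log2 fold changes of -0.04 and -0.03 at 1 µM (adjusted p = 0.862 and 0.888), and 100 µM was 2.35-fold and 2.01-fold above 1 µM (adjusted p = 2.05e-14 and 2.37e-13). The largest differences upward by the naming conditions were Cd24 (5.28-fold), Cyp1b1, Ugt2b1 (3.34-fold), Mest (3.07-fold) and Map2 (2.50-fold). Ugt2b1 is the case in which the doses opposed each other, at -0.55 on the log2 scale at 1 µM (adjusted p = 0.0114) and 1.19 at 100 µM. The largest differences downward were Gckr (5.58-fold), Steap4 (4.22-fold), Ftcd (4.11-fold), Cd36 (3.93-fold) and Ccn2 (3.85-fold). Crp fell 2.08-fold already at 1 µM (adjusted p = 4.89e-06) and was 2.57-fold lower again at 100 µM (adjusted p = 1.55e-09). Cyp4a1 had a log2 fold change of -0.06 at 1 µM (SE 0.10, adjusted p = 0.874) and was 3.53-fold lower at 100 than at 1 µM (adjusted p = 1.32e-14).

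The same dose at 24 h had its own vehicle arrays, and the difference of the effects between the times was tested directly. At 24 h 3000 genes were called (21.1%). Genes called in the same direction at both times made up 64.9% of the 48 h calls and 53.6% of the 24 h calls, and 13 genes were called in opposite directions. The effect differed between the times in 112 genes (0.788%), 54 with a higher (0.380%) and 58 with a lower effect at 48 h (0.408%), and 77 of them were among the genes called at 48 h. Of the 855 genes called at 48 h and not at 24 h, 24 differed by that test. The number was 47 with centred arrays, 174 without genes below the median signal, and 89 to 154 when single arrays were left out.

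**Figure D5:**
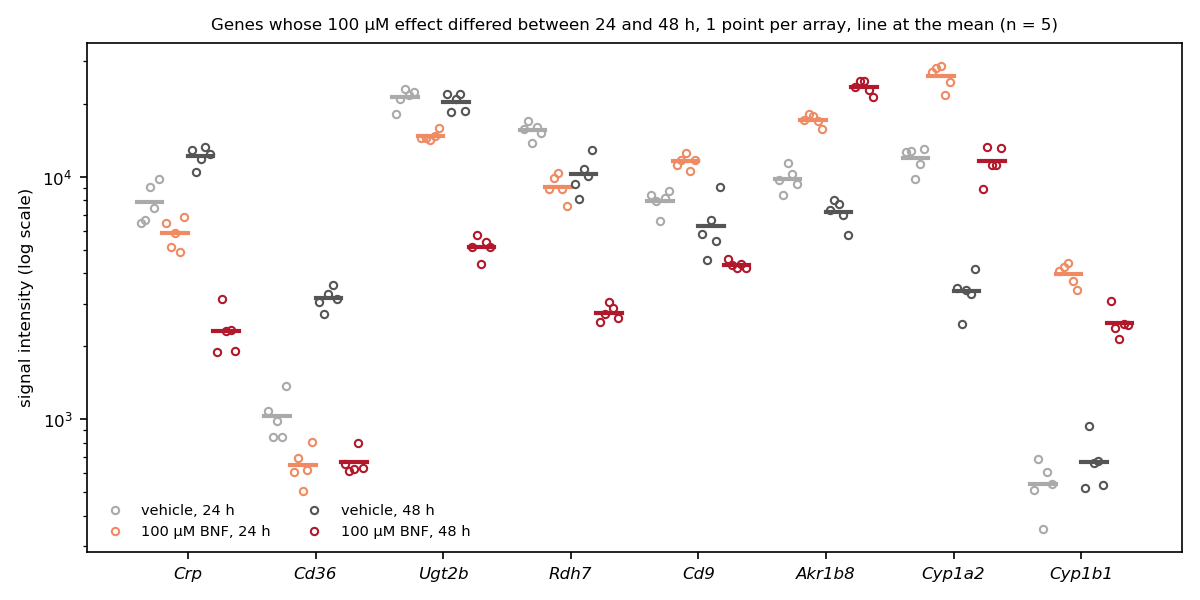
Signal intensity on a log axis, 1 point per array with a line at the mean of 5 arrays, of 8 genes whose 100 µM effect differed between the times, in vehicle and 100 µM BNF at 24 and 48 h. The vehicle arrays themselves differ between the times for several genes, as in Cd36, with means of 1029 ± 217 at 24 h and 3165 ± 319.5 at 48 h in vehicle and of 646 ± 110.3 and 664 ± 78.9 at 100 µM (SD, n = 5).

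Of the genes described here that passed this test, Crp had the lowest value. Its mean signal was 7886 ± 1485 in vehicle and 5851 ± 814 at 100 µM at 24 h, against 12212 ± 1132 and 2322 ± 509 at 48 h (± SD, n = 5). The fall was 1.34-fold at 24 h and 5.33-fold at 48 h, a difference of -1.99 log2 units (SE 0.18, adjusted p = 1.05e-08). For Cd36 the means were 1029 ± 217 and 646 ± 110.3 at 24 h and 3165 ± 319.5 and 664 ± 78.9 at 48 h, a difference of effects of -1.59 (adjusted p = 2.11e-06). The BNF means of the 2 times were close and the vehicle means were not. For Ugt2b the effects were -0.52 and -1.99 on the log2 scale (difference -1.46, adjusted p = 4.33e-10), and for Rdh7 -0.78 and -1.88 (difference -1.10, adjusted p = 3.62e-05). The tetraspanin Cd9 changed sign, from 0.55 at 24 h (adjusted p = 0.000379) to -0.50 at 48 h (adjusted p = 0.0013), a difference of -1.04 (adjusted p = 0.00021).

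In the other direction Akr1b8 was 1.76-fold above vehicle at 24 h and 3.29-fold at 48 h (difference 0.91 log2 units, adjusted p = 3.79e-06), and Gclc 1.38-fold and 1.97-fold (difference 0.51, adjusted p = 0.0011). The Akr1b8 means at 24 and 48 h were 9824 ± 1109 and 7169 ± 891 in vehicle, and 17173 ± 897 and 23498 ± 1440 at 100 µM. The Cyp1a2 rise was 2.19-fold after 24 h and 3.45-fold after 48 h (difference 0.66, adjusted p = 0.0423). Its means were lower at 48 h than at 24 h in both groups. They were 11930.4 ± 1353 at 24 h and 3374 ± 601 at 48 h in vehicle, and 26083 ± 2879 and 11590 ± 1782 at 100 µM. The Cyp1b1 rise was 7.50-fold after 24 h and 3.82-fold after 48 h (difference -0.97, adjusted p = 0.0387). For Cyp1a1 the difference was 0.15 (SE 0.29, adjusted p = 0.9). Flna, at -0.18 at 24 h (adjusted p = 0.445), was 0.68 at 48 h (difference 0.86, adjusted p = 0.0303). A positive difference also came from genes that were lower at 24 h and not called at 48 h. The transcriptional co-regulator Cited2 was at -0.92 at 24 h (adjusted p = 2e-06) and -0.06 at 48 h (adjusted p = 0.84), a difference of 0.86 (adjusted p = 0.0117). Aldh4a1, an enzyme of proline breakdown, was at -0.72 at 24 h (adjusted p = 1.06e-06) and 0.02 at 48 h (adjusted p = 0.947), a difference of 0.74 (adjusted p = 0.00305). The Aldh4a1 means at 24 and 48 h were 2269 ± 318 and 1226 ± 121 in vehicle, and 1374 ± 194 and 1237 ± 75.4 at 100 µM.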

How the data were processed

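Total RNA of 30 wells was hybridised as biotin-labelled target to Affymetrix rat arrays, 5 arrays for each of 6 groups. Per the submitters' processing notes the authors used MAS5, and the deposited values are linear intensities whose trimmed means (2% from each end) are equal on all arrays. For MAS5, version and settings: not given in the sources used here. Of 31099 probe sets, 57 controls were set aside, 20826 had 1 gene symbol in the platform annotation, 436 several and 9780 none. Of the 20826, 20758 probe sets had a gene number that matched the GRCr8 table. For each of 14217 genes the probe set brightest on average stood for the gene, and 4525 genes had more than 1. No array pair was identical, 0 columns of other samples were present, and the number of arrays limits the precision.

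Values were taken to log2 without a constant. limma 3.58.1 in R 4.3.3 was fitted with 1 mean per group on all 30 arrays (24 residual degrees of freedom, mean-variance trend), with Benjamini-Hochberg adjustment over all genes in each contrast: 100 µM against vehicle at 48 h, 100 against 1 µM at 48 h, the 100 µM effect at 48 h minus that at 24 h, 1 µM against vehicle at 48 h and 100 µM against vehicle at 24 h. A gene was called at an adjusted p of at most 0.05. Standard errors and fold changes come from this model, and errors given with ± are standard deviations of 5 arrays. The code was tested on simulated data.

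The members and the 48 gene lists (1205 genes listed, 1057 measured) were chosen with earlier results of these data known. The genes named were drawn from a rule that takes the AhR battery, the 15 highest and 15 lowest fold changes among called genes with separate groups and a higher mean above the median gene, up to 6 called members with the smallest adjusted p of each list, every member of lists of 12 or fewer, and 5 genes per direction of the dose and time contrasts. Not every gene the rule takes is named. Gsta3 falls outside it and was chosen after its values were seen. Alternatives were quantile normalization, centring on array medians, an offset of 50, array weights, no trend, a filter at the median mean signal, the second probe set of each gene, the contrast's groups alone, leaving out each array and, added after the data were seen, runs of array numbers as a block.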

Additional observations from a re-analysis of the deposited data

Results flagged for a closer look

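Some single arrays stood far from the other 4 of their group for a gene described above. The gap of the highest or lowest array to its neighbour, over the range of the group on the log2 scale, was above Dixon's 95% critical value for 5 samples in 17 of 280 combinations of gene and group (6.07%). By its definition that value is passed by chance in about 1 in 20 groups.

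At 100 µM, Cyp1a1 was 38670 in replicate 1 against 52140 to 55180 in the others, and Arnt was 32.7 in replicate 3 against 164.8 to 227.2. Replicate 1 was also the low array for Akr1c1 (42.39 against 240.5 to 358.1), Ugt2b10 (775.4 against 1051 to 1174), Cyp27a1 (11680 against 12680 to 13060) and Tat (9088 against 10440 to 10840). Cyp2c11 was 955.5 in replicate 5 against 1152 to 1236. High arrays were replicate 2 for Cyp2a1 (14360 against 12900 to 13180) and replicate 4 for Cd36 (802.8 against 615.1 to 653.1).

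In vehicle, replicate 2 was the low array for Cyp3a23-3a1 (28540 against 37230 to 39370), Fbp1 (8926 against 10670 to 11430), Upb1 (1853 against 2401 to 2637) and Apoc2 (10810 against 12780 to 13500). Replicate 5 was low for Ugt2b10 (1820 against 2414 to 2548) and Wdr12 (6966 against 8439 to 8853), and high for Bhlhe40 (3628 against 2642 to 2863) and Cited2 (11090 against 6323 to 6960).

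The 100 µM effect differed between 48 and 24 h, by limma's test of the difference, in 32 of the 140 genes described. Differences are in log2 units, 48 h minus 24 h, with the adjusted p in brackets. For AhR and NRF2 targets they were 0.656 for Cyp1a2 (0.0423), -0.972 for Cyp1b1 (0.0387), 0.909 for Akr1b8 (3.79e-06), 0.51 for Gclc (0.0011) and 0.276 for Pgd (0.0319). Among other enzymes of foreign compound metabolism they were -1.46 for Ugt2b (4.33e-10), -0.588 for Por (0.0075) and -0.857 for Sult1a1 (0.00013).

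In lipid and bile acid metabolism the effect was lower at 48 h for Cd36 (-1.59, 2.11e-06), Fabp1 (-0.806, 0.0179), Scd (-0.736, 0.00217) and Abcb11 (-0.59, 0.00191), and higher for Acly (0.492, 0.00113) and Abcc3 (0.507, 0.0267). It was higher for the proline breakdown enzyme Aldh4a1 (0.739, 0.00305) and lower for the urea cycle enzyme Cps1 (-0.623, 0.00285) and the retinol dehydrogenase Rdh7 (-1.1, 3.62e-05).

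Among plasma protein and acute phase genes it was lower for Crp (-1.99, 1.05e-08), Apoc2 (-0.536, 0.0118), F9 (-0.39, 0.0154), C4bpa (-0.57, 0.0148), Serpina3n (-0.762, 0.000275), Itih4 (-0.318, 0.0423) and Cebpd (-0.863, 0.000251), and higher for Fetub (0.644, 3.06e-05). Rsad2 had a higher effect at 48 h (0.444, 0.016), as did Flna (0.858, 0.0304) and Cited2 (0.859, 0.0117). Cd9 (-1.04, 0.00021), Lyz2 (-0.579, 0.0301), Cd14 (-0.475, 0.0118) and Epcam (-0.325, 0.00191) had lower effects.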

How the results depend on the processing

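Of 2532 values of single genes compared under other processing choices, 2486 kept their direction and side of the threshold, 37 were no longer called, 2 became called and 7 reversed. With the second probe set of the gene these were Psmb5 (-0.2085, on a dim probe set), Nop56 (-0.03196) and Cited2 (0.01798). The others were values near 0 that were called under no setting, Cited2 with array weights (0.001644) and without vehicle replicate 5, and Aldh4a1 without BNF replicate 1 or vehicle replicate 2. Without single arrays Cited2 ran from -0.1139 to 0.08888 and Aldh4a1 from -0.02116 to 0.07098. The 2-fold count of 252 was 130 without genes below the median mean signal, and the 112 genes whose effect differed between the times were 174 under that filter and 47 with arrays centred on their median (61.7% higher against 48.2%). The cause was not tested. Every other total, and the counts higher and lower at 100 µM against vehicle, stayed within 1.5 times of the values given, with 1904 (arrays centred on their median) to 2583 (quantile normalization) genes for 100 µM against vehicle. The dose comparison's 934 higher and 1050 lower genes became 1630 and 508 with centred arrays. When single arrays were left out, the count for 100 µM against vehicle ran from 2058 to 2501 and its 2-fold count from 226 to 273. The dose comparison ran from 1611 to 1919 and the time comparison from 89 to 154. Of 1822 counts of list members, 135 moved by over 1.5 times. The labels carry no replicate numbers, but the array numbers in the titles fall into 5 runs of 6, each with 1 array of every group. With these runs as a replicate block, chosen after seeing the data, 2572 genes differed from vehicle, 257 of them at least 2-fold, 2036 between the doses and 130 between the times. Of the genes described, Rgs5 lost its call (adjusted p = 0.0598). Deviations of vehicle and 100 µM arrays correlated at -0.0292 to 0.0489 within a run, none over 0.1, and at -0.0662 to 0.0301 between runs. Compared with the arrays of the other groups, 12 of 30 arrays correlated best with an array of their own run. Each array has only 1 array of each other group in its run, so most arrays it was compared with were of other runs. The main fit did not take the runs as pairs, and whether arrays of a run share a replicate was not tested. Array number and background signal limit dim genes such as Arnt and Ahrr, and the equal trimmed means leave a shift of all genes unmeasured.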

Other observations

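Many probe sets carry no gene name or several. Of 10216 such probe sets, 212 were higher and 336 lower at 100 µM against vehicle at 48 h, with adjustment over all probe sets, and 110 of those changed at least 2-fold. The share called was 5.36%. Over all 31042 probe sets that are not controls, 1542 were higher, 1718 lower and 425 at least 2-fold changed, and the share called was 10.5%.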
